A study of Rattus norvegicus with 4 samples.

Results

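The interleukin-1 (IL-1) receptor family and its ligands were examined in neonatal rat cardiomyocyte cultures as 6 genes of the 15731 in the deposited RPKM values. RPKM is the number of reads per kilobase of gene, scaled to the size of the library. The 6 genes were chosen by name, with their measured RPKM in these same libraries already known, so what follows describes them and tests nothing. They comprise the receptor genes Il1rl1, Il1r1 and Il1rap, the ligand genes Il33 and Il18, and the antagonist gene Il1rn, and each is listed once.

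Ventricular cardiomyocytes of wild type Wistar rats received 1 synthetic mimic each: cel-miR-67, a worm miRNA that served as control, or one of the miR-25, miR-93 and miR-106b. There was 1 library per mimic and 4 in all, so no difference has a replicate check, no p-value is given, and intervals cover counting error only. All groups shared the same handling: non-myocytes were depleted by pre-plating, transfection with a lipid reagent followed 24 h after plating, and RNA was taken 72 h after transfection. The labels give the dose as 25 nM in one place and 25 mM in another, and the age of the animals as postnatal day 1 in one place and day 0 in another. How many animals were pooled is not given in the sources used here. The 3 comparisons share the control library.

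IL-1 family cytokines act on pairs of related receptor chains. The IL-1 receptor, encoded by Il1r1, binds IL-1, and ST2, encoded by Il1rl1, binds IL-33, and both then recruit the common accessory chain encoded by Il1rap. The assembled receptors use MyD88 and IRAK kinases to activate NF-κB. ST2 was known early as a gene that cardiomyocytes and fibroblasts switch on under mechanical strain, and its soluble splice form, a decoy for IL-33, is measured in blood of patients with heart failure. IL-18 uses a receptor pair of its own, and the antagonist encoded by Il1rn occupies the IL-1 receptor without signalling.

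The mature sequences are shown because they define what the mimics share. They are the rat sequences of RefSeq (GRCr8), all 3 of which matched by name, while the mimics themselves carry the human names. Bases 2 to 8, the seed that pairs with target RNA, are in capitals.
rno-miR-106b-5p: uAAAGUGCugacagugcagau
rno-miR-93-5p: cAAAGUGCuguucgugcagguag
rno-miR-25-3p: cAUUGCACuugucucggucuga
miR-106b and miR-93 have the same seed, and their longest common run is 9 bases and starts at base 2 of both. miR-25 has another seed, and the longest run it shares with either is 4 bases. The 3 lie near each other on the minus strand of chromosome 12, at chr12:22157103-22157123, chr12:22156894-22156916 and chr12:22156652-22156673.

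Reads on the listed genes, recovered from the RPKM values, numbered between 15175185 and 18797234 per library. All counting intervals rest on these recovered reads, whose library sizes are far larger than the read number in the study's methods. Cardiomyocyte markers were abundant in every library, with summed RPKM over 9 genes between 10885 and 14708, and fibroblast markers were also present, with sums over 9 genes between 334 and 835. In such cultures fewer cells of a type and less RNA per cell cannot be told apart.

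The receptors came first in abundance. Il1rl1 (ENSRNOG00000014835) had an RPKM of 14.5 with cel-miR-67, 64.6 with miR-25, 30.2 with miR-106b and 17.1 with miR-93, from 1217, 6503, 3324 and 1723 reads in that order. The level was highest with miR-25 and lowest with the control mimic, and each step of that order exceeded counting error. Compared with control, Il1rl1 was 4.45-fold higher with miR-25 (95% exact interval 4.18 to 4.73) and 2.08-fold higher with miR-106b (1.95 to 2.22). With miR-93 the ratio was 1.18 (1.09 to 1.27), below the 1.3-fold cutoff used for calls; scaled to reads on listed genes it was just past it, at a log2 ratio of 0.38. Where both libraries exceeded RPKM 1.0, the Il1rl1 ratio was number 10 from the top of 11198 genes with miR-25, number 112 of 11296 with miR-106b and number 2825 of 11280 with miR-93. In the control library 76.8% of genes had a lower RPKM than Il1rl1, and with miR-25 95.6% did.

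Il1r1 (ENSRNOG00000014504), the signalling chain for IL-1α and IL-1β, had an RPKM of 15.9 with cel-miR-67, 15.3 with miR-25, 14.05 with miR-106b and 13.8 with miR-93. Its levels spanned the narrowest range of the 6 genes, with the highest library 1.15-fold above the lowest (1.08 to 1.23). The ratio to control was 0.958 (0.899 to 1.02) with miR-25, 0.869 (0.814 to 0.927) with miR-93 and 0.882 (0.827 to 0.940) with miR-106b, all short of the cutoff. In the order of levels, cel-miR-67 and miR-25 were not separated by counting error, nor were miR-106b and miR-93. On the log2 scale the miR-25 ratio was -0.06 as deposited and 0.09 when libraries were scaled to reads on listed genes, so its direction depended on the scaling.

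Il1rap (ENSRNOG00000001928), the accessory chain used by both receptors, had an RPKM of 7.01 with cel-miR-67, 12.3 with miR-25, 5.00 with miR-106b and 2.75 with miR-93, from 563, 1186, 527 and 266 reads in that order. The mimics of the shared seed lay below control and miR-25 above it, and every step of the order miR-25, control, miR-106b, miR-93 exceeded counting error. The ratio to control was 0.392 (0.338 to 0.455) with miR-93, number 140 from the bottom of 11280 genes, and 0.713 (0.632 to 0.805) with miR-106b. With miR-25 it was 1.75 (1.58 to 1.94). Between the highest and the lowest library Il1rap differed 4.47-fold (3.91 to 5.12), a span close to the 4.45-fold span of Il1rl1, with another library at the lower end.

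**Figure D1:**
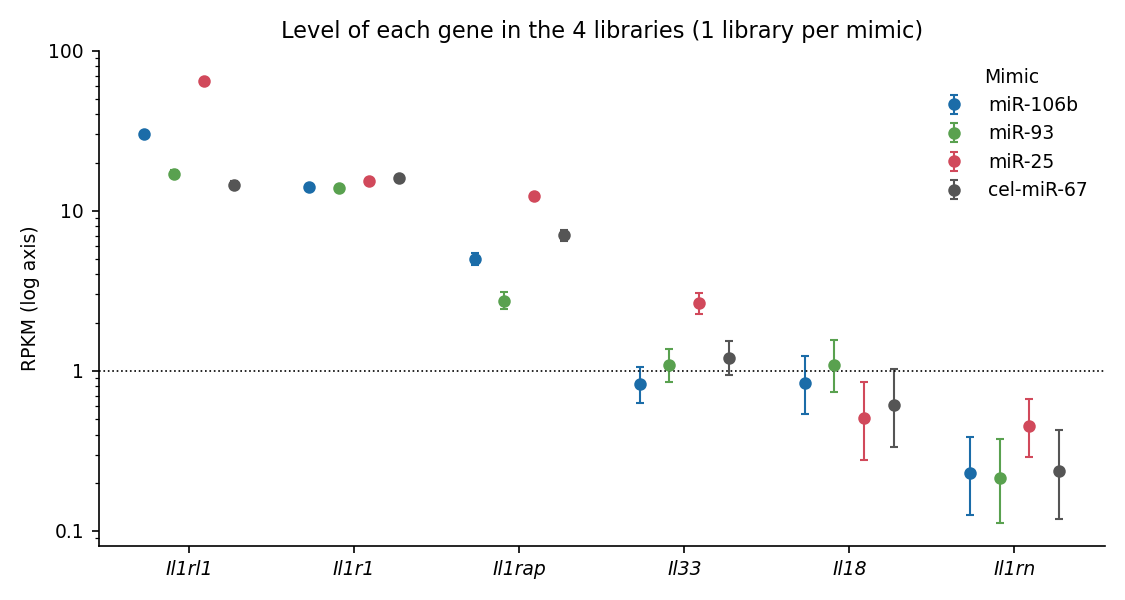
RPKM of each gene (log axis) in the 4 libraries, 1 point per library, with 95% exact Poisson intervals of the reads as bars and a dotted line at RPKM 1.0. Il1rl1 reaches 64.6 with miR-25 against 14.5 with cel-miR-67, Il1r1 stays between 13.8 and 15.9, and Il18 and Il1rn have wide intervals.

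Of the ligands, Il33 (ENSRNOG00000016456), the alarmin that binds ST2, had an RPKM of 1.21 with cel-miR-67, 2.64 with miR-25, 0.825 with miR-106b and 1.09 with miR-93, from 67, 176, 60 and 73 reads in that order. In the order of levels, cel-miR-67 and miR-93 were not separated by counting error, nor were miR-93 and miR-106b. The miR-25 library stood apart from all the others by its counting interval. The ratio to control was 2.19 (1.64 to 2.94) with miR-25, a call that is lost with an RPKM cutoff of 2.0, and 0.904 (0.640 to 1.28) with miR-93. With miR-106b it was 0.683 (0.474 to 0.982), but that library was under the RPKM cutoff of 1.0 and the gene was not counted there.

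Il18 (ENSRNOG00000009848), a cytokine released after cleavage by caspase-1, had an RPKM of 0.613 with cel-miR-67, 0.510 with miR-25, 0.835 with miR-106b and 1.09 with miR-93, from 14, 14, 25 and 30 reads in that order. It exceeded RPKM 1.0 in the miR-93 library alone. Its ratio to control was 0.832 (0.368 to 1.88) with miR-25, 1.78 (0.915 to 3.63) with miR-93 and 1.36 (0.681 to 2.83) with miR-106b, so no difference from control was detectable at this depth. No neighbours in the order of its levels were separated, and the highest library was 2.14-fold the lowest (1.10 to 4.36). This pair was picked as the extremes after the values were seen, so its interval is too narrow and establishes no difference.

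Il1rn (ENSRNOG00000005871), the receptor antagonist, had an RPKM of 0.238 with cel-miR-67, 0.450 with miR-25, 0.231 with miR-106b and 0.215 with miR-93, from 11, 25, 14 and 12 reads in that order. Its highest value was with miR-25, at 1.89 times control, and the interval of 0.897 to 4.26 included no difference. Neighbours in its order were not separated either, and the highest library was 2.09-fold the lowest (1.01 to 4.56). That pair was also picked as the extremes, so its interval does not establish a difference. Il1rn was at or below RPKM 1.0 in all 4 libraries.

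Counted together, RPKM was above 1.0 in mimic and control for 4 of the 6 genes with miR-25, 4 with miR-93 and 3 with miR-106b. With miR-25, Il1rl1, Il1rap and Il33 were more than 1.3-fold higher than control and none was lower; of all genes so measured, 19.3% were higher and 22.6% lower. With miR-106b, Il1rl1 was higher and Il1rap lower, where the shares of all genes were 11.9% and 12.7%. With miR-93, Il1rap was lower and none was higher, where 15.6% of all genes were lower and 15.1% higher. The median log2 ratio over the measured members was 0.97 with miR-25, -0.17 with miR-93 and -0.18 with miR-106b, and over all measured genes it was -0.01, -0.002 and -0.003. Because these genes were chosen with their ratios known, the counts carry no weight against the background.

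**Figure D2:**
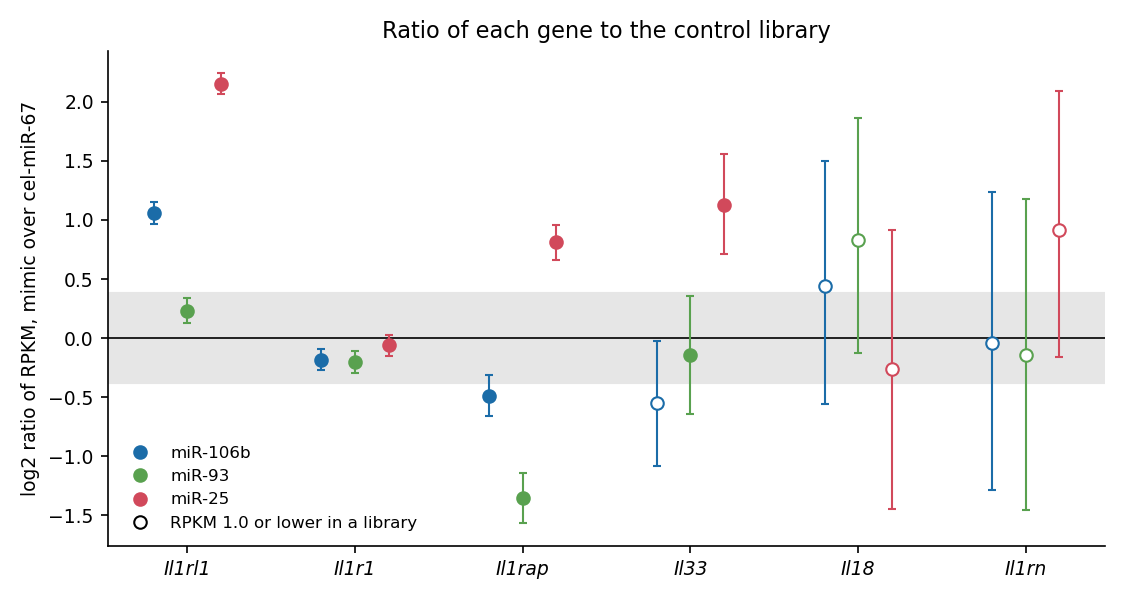
log2 ratio of RPKM of each mimic over cel-miR-67 with 95% exact counting intervals; the grey band is the range within 1.3-fold and open points had RPKM 1.0 or lower in a library. Filled points above the band are Il1rl1, Il1rap and Il33 with miR-25 and Il1rl1 with miR-106b. Filled points below it are Il1rap with miR-106b and miR-93. Some open points of Il33, Il18 and Il1rn also lie outside it.

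**Figure D3:**
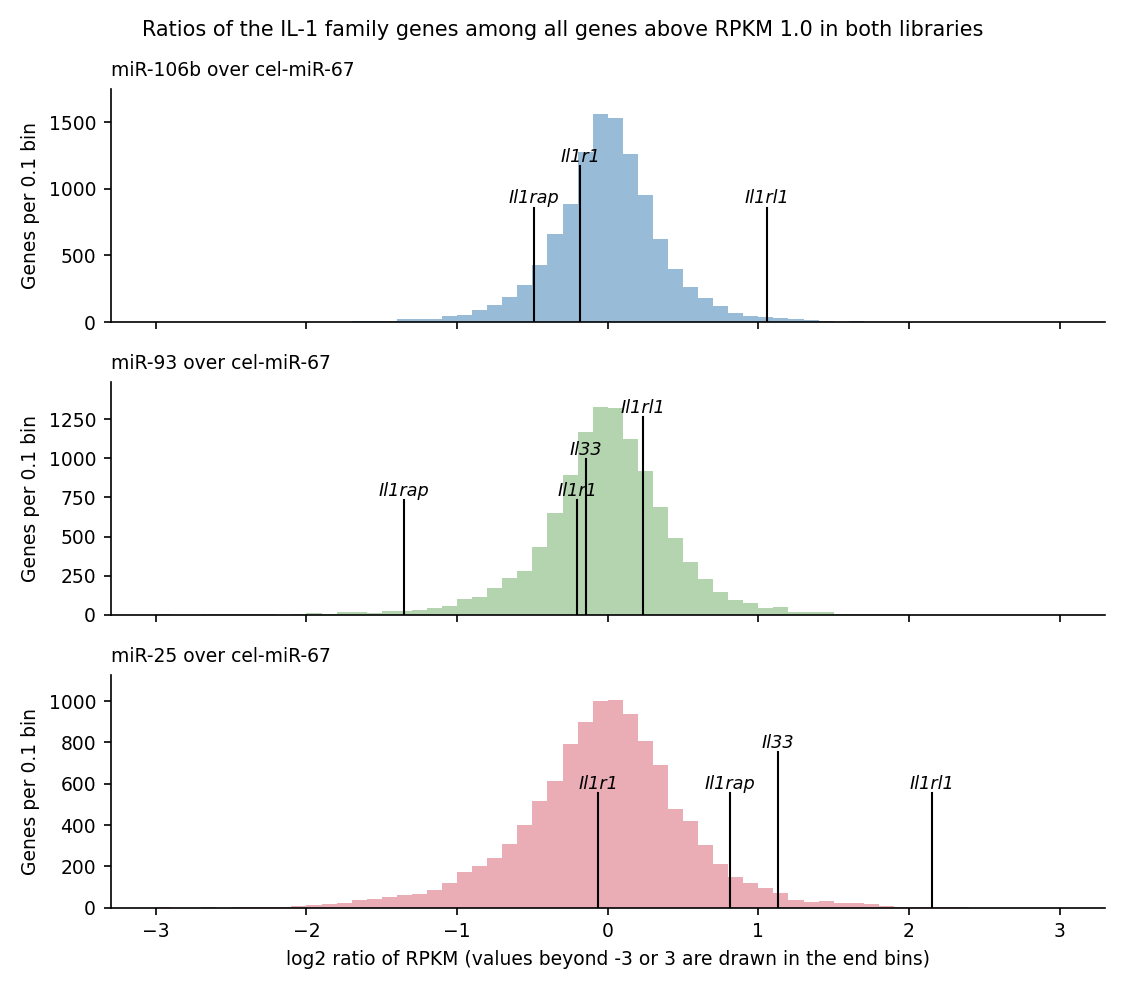
Number of genes per 0.1 bin of the log2 ratio of RPKM over cel-miR-67, for genes that exceed RPKM 1.0 in the mimic and the control library, with lines at the measured IL-1 family genes. Il1rl1 lies at the far right with miR-25, number 10 of 11198, and Il1rap in the left tail with miR-93, number 140 from the bottom of 11280.

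The mimics were also compared directly. Within the pair of the shared seed, Il1rl1 with miR-93 was 0.565-fold its level with miR-106b (0.532 to 0.599) and Il1rap was 0.550-fold (0.473 to 0.638), while Il1r1 was 0.985-fold (0.925 to 1.05). Il33 was 1.33-fold higher with miR-93 (0.929 to 1.90), an interval that includes no difference. With miR-25, Il1rl1 was 2.14-fold its level with miR-106b (2.05 to 2.23) and 3.78-fold its level with miR-93 (3.59 to 3.99). Il1rap with miR-25 was 2.46-fold its level with miR-106b (2.22 to 2.73), and Il33 was 3.20-fold (2.38 to 4.37). Whether these differences exceed those between cultures given the same mimic cannot be told from 1 library each.

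Since RPKM is per length, the receptor genes can be set against each other within a library. The ratio of Il1rl1 to Il1r1 was 0.912 (0.847 to 0.981) with cel-miR-67, 1.23 (1.15 to 1.32) with miR-93, 2.15 (2.04 to 2.28) with miR-106b and 4.23 (4.03 to 4.45) with miR-25. Thus Il1r1 had the higher RPKM of the pair in the control library and Il1rl1 in the other 3. The ratio of Il1rl1 to its partner Il1rap was 2.07 (1.87 to 2.29) with cel-miR-67, 6.05 (5.51 to 6.64) with miR-106b, 6.21 (5.45 to 7.09) with miR-93 and 5.26 (4.94 to 5.60) with miR-25. It was higher in all 3 miRNA libraries than in control, by way of more Il1rl1 with miR-106b and miR-25 and of less Il1rap with miR-106b and miR-93. The ratio of Il1r1 to Il1rap was 2.27 (2.07 to 2.50) with cel-miR-67, 2.81 (2.55 to 3.10) with miR-106b, 5.03 (4.42 to 5.74) with miR-93 and 1.24 (1.16 to 1.33) with miR-25. These are ratios of RNA over whole genes, which do not separate splice forms such as soluble and membrane ST2 or soluble and membrane accessory chain.

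**Figure D4:**
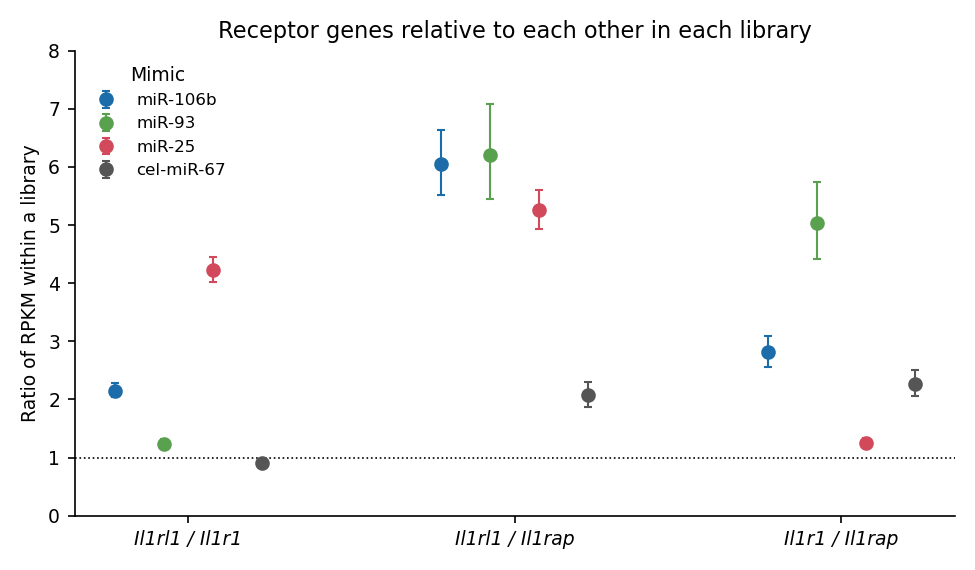
Ratio of RPKM between pairs of receptor genes within each library (linear axis from 0), with 95% exact counting intervals and a dotted line at equality. Il1rl1 over Il1rap lies between 5.26 and 6.21 in the miRNA libraries and at 2.07 with cel-miR-67.

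The letters before the start sites of Il1rl1, Il1rap and Il33 are shown because these were the genes past the cutoff with miR-25. RefSeq (GRCr8) gave 8 windows for the 6 genes, with 2 each for Il1rap and Il33, and the 250 bases upstream of a start are printed on the gene's strand, with matches to any of 5 motifs in capitals.
Il1rl1, chr9:50203388-50203637, plus strand: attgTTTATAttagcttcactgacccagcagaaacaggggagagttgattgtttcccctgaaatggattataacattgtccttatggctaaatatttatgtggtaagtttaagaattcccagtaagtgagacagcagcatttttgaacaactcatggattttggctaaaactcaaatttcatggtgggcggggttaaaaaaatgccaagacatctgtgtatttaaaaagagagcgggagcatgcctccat
Il1rap, chr11:87704343-87704592, minus strand: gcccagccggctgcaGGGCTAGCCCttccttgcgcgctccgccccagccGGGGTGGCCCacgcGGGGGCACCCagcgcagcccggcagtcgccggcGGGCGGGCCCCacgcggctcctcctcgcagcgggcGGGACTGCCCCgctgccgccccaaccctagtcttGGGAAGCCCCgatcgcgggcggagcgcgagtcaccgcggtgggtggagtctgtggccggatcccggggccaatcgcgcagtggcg
Il33, chr1:237115323-237115572, plus strand: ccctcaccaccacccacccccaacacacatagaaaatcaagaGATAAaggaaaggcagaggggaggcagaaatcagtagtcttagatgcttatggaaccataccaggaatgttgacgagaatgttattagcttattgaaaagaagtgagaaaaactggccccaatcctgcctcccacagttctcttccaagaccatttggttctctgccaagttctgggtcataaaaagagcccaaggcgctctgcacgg
Il33, chr1:237134696-237134945, plus strand: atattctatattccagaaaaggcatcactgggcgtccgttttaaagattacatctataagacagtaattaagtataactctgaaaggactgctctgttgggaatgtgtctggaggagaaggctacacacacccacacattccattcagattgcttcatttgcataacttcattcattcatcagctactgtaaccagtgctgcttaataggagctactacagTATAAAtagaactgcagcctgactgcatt
The motifs were searched on both strands of the windows, which reach 50 bases past the start: the TATA box (letters TATAAA), the motif of GATA factors (letters GATAA), an AP-1 motif (TGANTCA), an NF-κB motif (GGG, then any 5 bases, then CC) and a STAT motif (TTCNNNGAA). Of all 33469 windows, 14.2%, 26.5%, 7.33%, 47.3% and 8.87% hold them in that order. The first Il1rap window, with 75.3% G and C against a median of 51.7% over all windows, held the NF-κB letters at 8 overlapping or separate positions. Of the 8 windows, 5 held these letters, in 4 of the 6 genes. The 2 Il1rap windows overlap, and the matches in the second are also among those of the first. The Il1rl1 window, with 42.0% G and C, held no motif other than TATAAA, on the opposite strand at position -246. The second Il33 window held TATAAA at position -29, and the first held GATAA at -208. The AP-1 letters were met in Il18 alone, and the STAT letters in none of the 8 windows. Matches of letters are a description, and which start sites were in use was not measured.

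The other family members were scarce, at an RPKM of 2.32 or lower, but in control Il18bp and Il1rl2 exceeded Il33, Il18 and Il1rn. Of 8 other ligands and decoys listed, 3 are in the table. Il18bp, which encodes a soluble trap for IL-18, had an RPKM of 1.65 with cel-miR-67, 0.982 with miR-25, 1.87 with miR-106b and 1.96 with miR-93. Its ratio to control was within the cutoff in the libraries of the shared seed. Il1b reached at most 0.420, with miR-93, and Il1a, encoding IL-1α, was listed at 0 in the control library, where 3 reads, the limit that a count of 0 allows, would be an RPKM of 0.0751. Il1r1 RNA was thus present with next to no RNA of its agonists.

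Of 7 other receptors listed, 5 are in the table. Il1rl2, the receptor for IL-36, had an RPKM of 2.32 with cel-miR-67, 1.97 with miR-25, 0.987 with miR-106b and 0.940 with miR-93. The gene was at or below 1.0 in the libraries of the shared seed and was counted with miR-25 alone, at 0.850-fold. Il1r2, a decoy receptor without a signalling domain, was between 0.331 and 0.585, and Il18rap, a chain of the IL-18 receptor, was at most 0.158 and listed at 0 with miR-93, where 3 reads would be an RPKM of 0.0207.

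Among 18 signal adaptors and kinases, 15 were measured with miR-25, 14 with miR-93 and 14 with miR-106b. With miR-25, 6 were more than 1.3-fold higher and 1 was lower, where 19.3% and 22.6% of all measured genes were, and the median log2 ratio was 0.15. Irak4, the kinase that first joins MyD88, was 2.00-fold control with miR-25, at an RPKM of 2.27 against 1.14. Chuk, encoding IKKα, was at 1.65-fold, Tollip at 1.59-fold, Tab2, the most abundant of the list, at 1.42-fold, and Myd88 itself at 1.34-fold. Ecsit was the lower one, at 0.659-fold. With miR-106b, 1 gene was higher and 1 lower, against 11.9% and 12.7% of all genes, and the median was -0.02: Tab3 at 1.39-fold and Irak1, the kinase downstream of Irak4, at 0.766-fold. With miR-93, none was higher and 2 were lower, against 15.1% and 15.6% of all genes, with a median of -0.05: Irak1 at 0.703-fold and Tollip, an inhibitory adaptor, at 0.606-fold.

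Among 10 NF-κB subunits and inhibitors, 8 were measured with miR-25, of which 5 were higher and none lower, beside 19.3% and 22.6% of all genes, with a median log2 ratio of 0.52. Nfkb2, a precursor subunit of the alternative pathway, had an RPKM of 7.18 with miR-25 against 3.66 in control, and its partner Relb had 3.22 against 1.76. The inhibitor genes Nfkbie and Tnfaip3 were at 1.91-fold and 1.55-fold, while the inhibitor gene Nfkbia was at 0.879-fold, within the cutoff. Nfkb1, the most abundant, and Rela, the subunits of the classical heterodimer, were at 0.968-fold and 0.896-fold, within the cutoff. With miR-106b, Tnfaip3 alone of the 8 genes measured was past the cutoff, at 0.762-fold. Of all genes 12.7% were lower and 11.9% higher, and the median of the list was -0.15. The log2 interval of that Tnfaip3 ratio, -0.87 to 0.09 from 75 reads in either library, included no difference. With miR-93, 2 of 7 were higher and 2 lower, beside 15.1% and 15.6% of all genes, with a median of 0.03. Nfkbiz, an inducible cofactor of NF-κB, was at 0.469-fold and Rela at 0.702-fold, while the inhibitors Nfkbia and Nfkbie were at 1.36-fold and 1.39-fold. The filter left out Nfkbib, an inhibitor gene at an RPKM of 0.820 in control. It was at 1.82-fold with miR-106b, 2.36-fold with miR-93 and 1.82-fold with miR-25. Rel, also left out, was at 2.15-fold with miR-25, 0.826-fold with miR-106b and 0.715-fold with miR-93. The intervals of Rel with miR-106b and miR-93 included no difference. Tnfaip3 was left out with miR-93 alone, at 0.642-fold.

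Of 8 inflammasome and processing genes listed, 7 are in the table and 2 were measured against control. Casp4, an inflammatory caspase, had an RPKM of 11.4 with cel-miR-67, 5.22 with miR-25, 12.5 with miR-106b and 13.8 with miR-93. With miR-25 it was 0.458-fold control. Gsdmd, the pore-forming substrate of that caspase, had 8.28, 14.4, 7.69 and 9.90 in the same order, and was 1.73-fold control with miR-25. The median log2 ratio of the pair was -0.17 with miR-25, 0.27 with miR-93 and 0.01 with miR-106b. Pycard, the adaptor of the inflammasome, was under the cutoff in control, at 0.761.

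Of 16 genes known to respond to IL-1, 11 are in the table. With miR-25, none of 6 measured was higher and 3 were lower, beside 19.3% and 22.6% of all genes, with a median log2 ratio of -0.40: the chemokine Ccl7 at 0.449-fold, the prostaglandin synthase Ptgs2 at 0.502-fold and the adhesion molecule Icam1 at 0.655-fold. The filter left out genes of this list that were under RPKM 1.0 in a library, in both directions. The chemokine Ccl20 was at 0.653 with miR-25 against 5.32 in control, or 0.123-fold, and the adhesion molecule Vcam1 at 0.746 against 2.28, or 0.327-fold. The cytokine Lif was at 1.71 against 0.911, or 1.88-fold, and Il6 had 12 reads with miR-25 and 3 in control. With miR-106b, 3 of 8 were higher and 1 lower, beside 11.9% and 12.7% of all genes, with a median of -0.12. Ptgs2 had an RPKM of 1.51 there against 3.11 in control, and the chemokines Ccl7, Cxcl1 and Ccl20 were at 1.37-fold, 1.34-fold and 1.32-fold. The log2 intervals of Ccl7 (-0.06 to 0.99) and Cxcl1 (-0.10 to 0.96) included no difference, while that of Ccl20 (0.03 to 0.78) did not. With miR-93, 1 of 7 was higher and 1 lower, beside 15.1% and 15.6% of all genes, with a median of 0.09, and the lower gene was Ccl2, a chemokine for monocytes, at 0.663-fold. Ptgs2 was at 0.286-fold with miR-93 but was not counted, since its RPKM there was 0.887. Sod2, the most abundant of the list, lay between 25.1 and 28.3 in all libraries.

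**Figure D5:**
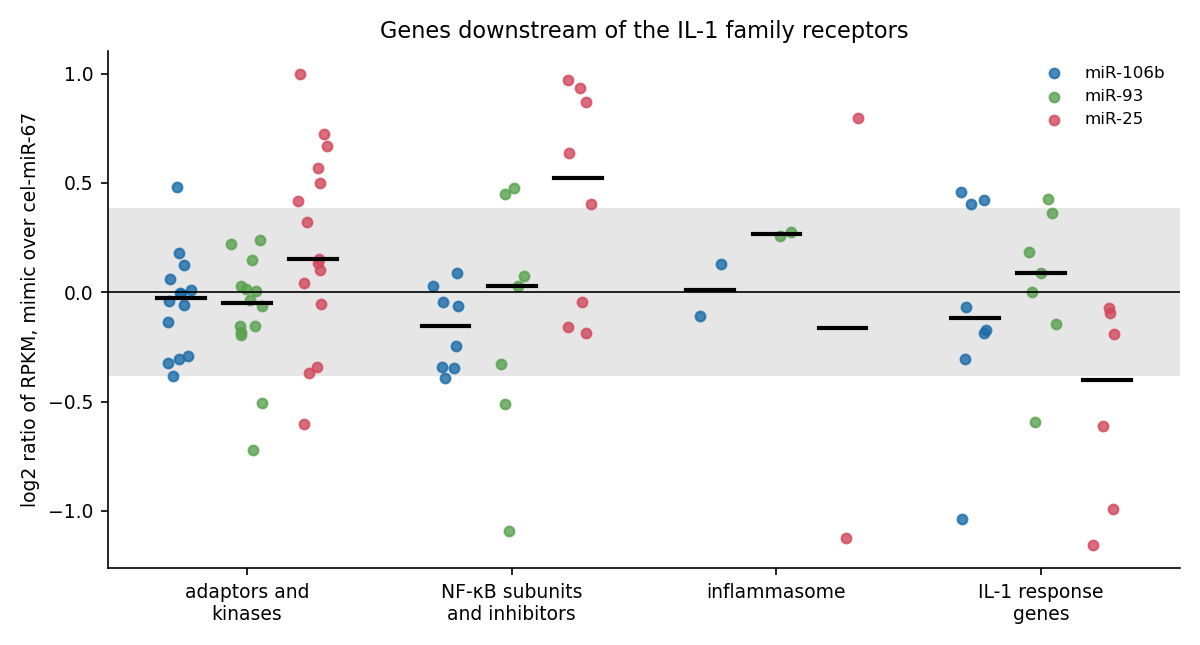
log2 ratio of RPKM of each mimic over cel-miR-67 for single genes of 4 companion lists, counted where RPKM was above 1.0 in both libraries; black bars are medians and the grey band is the range within 1.3-fold. With miR-25 the median is 0.52 for NF-κB subunits and inhibitors and -0.40 for IL-1 response genes.

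Markers of cell types differed between the libraries as well. With miR-25, the summed RPKM of 4 smooth muscle genes was 2051 against 745 in control, a ratio of 2.75, and all 4 were past the cutoff, where 19.3% of all genes were higher and 22.6% lower, with Tagln at 2.73-fold and Acta2 at 2.69-fold. The fibroblast sum was 0.400-fold control with miR-25, with 7 of 9 genes lower and 1 higher, and Col3a1 and Col1a2 were at 0.397-fold and 0.273-fold. The cardiomyocyte sum was 0.772-fold with miR-25, where 8 of 9 genes were lower, among them Myl2 and Tnnt2, at 0.475-fold and 0.719-fold. The ninth, the natriuretic peptide gene Nppa, was at 2.38-fold, and without it the sum was 0.539-fold control. With miR-93 the 3 sums were 0.782-fold, 0.899-fold and 0.740-fold in that order, and with miR-106b 0.921-fold, 0.777-fold and 0.989-fold. Nppa was at 0.140-fold with miR-93, and without it the cardiomyocyte sum there was 0.827-fold. Of the 9 fibroblast genes, 5 were lower and none higher with miR-93, where 15.6% and 15.1% of all genes were. With miR-106b 5 were also lower and none higher, where 12.7% and 11.9% of all genes were. With miR-25 the smooth muscle sum was higher, as were Il1rl1, Il1rap and Il33, while the fibroblast and cardiomyocyte sums were lower. The part of these cell types in the ratios of Il1rl1, Il1rap and Il33 was not tested.

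Markers of blood and vessel cells, which carry IL-1 family receptors, were at low RPKM. Summed RPKM was between 5.72 and 7.77 over 6 of 7 endothelial genes, led by Egfl7 and Kdr, and between 12.8 and 17.5 over 8 macrophage genes, led by Lyz2 and Csf1r. It was between 1.79 and 4.37 over 2 of 6 mast cell genes, nearly all from Kit, with Hdc at most 0.136, and between 1.49 and 2.73 over 4 of 7 lymphocyte genes, led by Cd4 and Cd8a. None of the markers in the table was at 0 in any library. With miR-25 all 4 sums were below control, at 0.737-fold, 0.732-fold, 0.734-fold and 0.667-fold. Single genes were not all lower, with Kdr at 1.82-fold and Lyz2 at 0.948-fold. The part of these cells in the levels of the IL-1 family genes was not tested.

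Genes with the most similar pattern over the 4 libraries were sought among 10700 genes above RPKM 1.0 in all of them, by the distance between log2 RPKM profiles centred on their own mean. Nearest to Il1rl1 was Aif1l, an actin-binding protein gene, at a distance of 0.16, with an RPKM of 32.3 with cel-miR-67, 133 with miR-25, 59.6 with miR-106b, and then 38.6 with miR-93. Lmln and Ptprn followed at 0.45 and 0.47. Nearest to Il1rap were Arhgap24, Arhgef39 and Cttnbp2nl, at 0.22, 0.24 and 0.25. Nearest to Il1r1, whose profile is almost flat, were Usp19, Manbal and Coa5, at 0.01, 0.02 and 0.02. With 4 points per profile, likeness of this kind is a description only.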

How the data were processed

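RNA of 4 cultures was sequenced as 50-bp single reads, 1 library per mimic. The authors trimmed reads with Cutadapt, aligned them to the Rnor_6.0 genome with STAR 2.7 (version per the submitters' processing notes), and converted rounded gene counts to the deposited RPKM values with the rpkm function of edgeR. The program that counted reads, and its use of strand, are not given in the sources used here. Each of the 4 files of single samples held the same values as the table of all libraries.

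RPKM values are not counts, so no count test was run, and fold changes are ratios of RPKM over cel-miR-67 without a pseudocount. Genes with RPKM above 1.0 in both libraries were measured, and those past 1.3-fold were called. Whole reads were recovered from the steps of the values for all 15731 genes, by the most common ratio between libraries and whole gene lengths, and were tested on simulated data. Where a gene's reads and length share a factor, reads are understated. The library sizes behind the values did not come out whole in reads and were larger than the read number per sample given in the study's methods, for a reason that was not tested, so reads and intervals rest on the deposited values alone. Listed genes took between 60.4% and 66.9% of these sizes. Exact intervals are 95% Clopper-Pearson intervals of the share of reads in one library of a pair. Those between the highest and the lowest library take no account of how that pair was picked.

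Named were the 6 members, the 3 most abundant genes of each pathway list and its largest ratio per mimic, the 2 most abundant markers of each cell type, those at 0, and for members above RPKM 1.0 everywhere the 3 nearest profiles. Myd88, Chuk, Rel, Relb, Nfkbib, Nfkbie, Cxcl1, Ccl20, Vcam1, Lif, Il6, Nppa (with the sum without it) and Il18r1 were added after their values were seen. The members, lists and rules were chosen with earlier results of these data known. Seed matches in 3′UTRs and protein sequences were not analysed here. Scripts ran in Python 3.11.15 with scipy 1.17.1 for intervals, pandas 2.3.3 for the values, matplotlib 3.10.9 for plots and numpy 2.4.6.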

Additional observations from a re-analysis of the deposited data

How the results depend on the processing

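With 1 library per mimic, no library could be left out and no spread between cultures is known. No paired analysis was possible because each group has 1 library and the result comes from no test. Of 60 recomputed counts of members past the cutoff, 52 equalled the reported count, including counts of 0, or were within 1.5 times it. With miR-106b, the number lower was 2 with RPKM above 1.0 in either library and 2 with no filter (Il33 added), and 0 at fold-change cutoffs of 1.5 and 2, and the number higher was 2 with no filter (Il18 added). With miR-93, the number higher was 1 instead of 0 with RPKM above 1.0 in either library and with no filter (Il18), and 1 when scaled to reads on listed genes (Il1rl1, log2 ratio 0.38). With miR-25, the number higher was 2 instead of 3 with RPKM above 2.0 in both libraries (Il33 lost), 2 at a fold-change cutoff of 2 (Il1rap lost) and 4 with no filter (Il1rn added). Scaling to reads on listed genes moves the median gene, raising all log2 ratios by 0.15 with miR-25, 0.15 with miR-93 and 0.08 with miR-106b. Of 90 recomputed log2 ratios of members, 84 lay within their counting interval and 6 did not, and no called ratio changed sign. Centring on the median gene or on a trimmed mean of log ratios shifted values by at most 0.0123, so those settings could move little. Under scaling to reads on listed genes, Il1rl1 and Il1r1 with miR-93 and miR-25, and Il1rap with miR-25, left their intervals. Il1rap with miR-93 did so with a pseudocount of 1 RPKM. Depth limits Il18 and Il1rn, with at most 30 reads in any library.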

Other observations

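On rat chromosome 9, RefSeq (GRCr8) orders the genes Il1r2, Il1r1, Il1rl2, Il1rl1, Il18r1 and Il18rap in a row, with H3f3al3, which has no value here, between the first pair. The neighbours had unlike levels. Il1rl2, which lies between Il1r1 and Il1rl1, was 0.426-fold control with miR-106b and 0.406-fold with miR-93, where Il1rl1 was 2.08-fold and 1.18-fold and Il1r1 was 0.882-fold and 0.869-fold. Il18r1, next to Il1rl1 on the other side, encodes the binding chain of the IL-18 receptor and was at most 0.0445 RPKM, below the 0.158 RPKM of Il18rap in the same control library. The cluster was looked up after the values were seen.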
